A study of Gossypium hirsutum with 12 samples.

Results

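Tubulin beta 8 of cotton chromosome A03 (Gh_A03G0127) and of chromosome D03 (Gh_D03G1454) make up the pair of genes described here, 2 of the 70477 genes in the deposited count table. The pair was chosen by measured values, since both genes stand on the study's list of transcripts selected on WS48/WW24 and WS48/WW48, with WS24/WW24 given beside them. The level of the pair in these comparisons, and in WW48/WW24, which is the difference of the first and second of them, is therefore given as a description with no test. The study's tables give the name tubulin beta 8 to 4 genes, and the other 2 are Gh_A03G0126 and Gh_D03G1455, whose numbers are next to those of the pair. The sources used here do not say which of the 4 genes descend from the same ancestral copy. No sequence of any of the 4 was found in the reference tables, so none is shown.

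The study compared gene expression in the elongating tip of the primary root of cotton (Gossypium hirsutum, cv. AU90810) between well-watered (WW) and water-stressed (WS) seedlings. All seedlings grew in vermiculite at 29 °C in the dark and were harvested after transplanting, and tips were pooled to 50 to 100 mg of fresh weight per sample. WW24 and WW48 were seedlings at a water potential of -0.02 MPa, harvested at 24 h and 48 h, from which the apical 12 mm was taken. WS24 and WS48 were seedlings in vermiculite at -1 MPa harvested at the same times, from which the apical 6 mm was taken. These potentials are those of the vermiculite and not of the root tissue. Each group had 3 libraries from independent experiments, 12 in all, with 6433993 to 11316010 counts assigned to genes. The 6 mm tips come from every water-stressed and the 12 mm tips from every well-watered library, so the effect of the water supply and that of the length of root sampled cannot be told apart. In bulk RNA, fewer cells of a type and less RNA per cell cannot be told apart either.

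Beta-tubulin joins with alpha-tubulin into the subunit from which microtubules are built. In plant cells microtubules form the spindle and the phragmoplast during division, and in elongating cells the cortical array that guides the deposition of cellulose. The root tip holds the meristem, where cells divide, and behind it the elongation zone and then maturing tissue, in which xylem vessels and root hairs differentiate. The study set each tip length, from profiles of cell length, to take in the elongation zone of that treatment. Whether the 6 mm tips held relatively more young tissue than the 12 mm tips was not tested. The pair is described here as a possible sign of the share of young tissue.

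WW24 replicate 2 stood apart from the other WW24 libraries. The summed level of 12 xylem genes (laccases, xylem serine peptidase 1 and FASCICLIN-like arabinogalactan-protein 12) was 1051 CPM in it (CPM, read counts scaled to library size with TMM factors), against 255 in replicate 1 and 353 in replicate 3. Results that use WW24 are given without this library where that changes a call.

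Both members of the pair were more abundant in water-stressed than in well-watered tips at both times, and at each treatment more abundant at 24 h than at 48 h. Gh_A03G0127 stood at 103, 115 and 93.5 CPM in the WW24 libraries (replicates 1, 2 and 3) and at 310.4, 289 and 321 CPM in the WS24 libraries. At 48 h it stood at 67.0, 54.6 and 64.3 CPM in WW48 and at 264, 215 and 278 CPM in WS48. The lowest water-stressed library, WS48 replicate 2, lay above the highest well-watered one, WW24 replicate 2.

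Gh_D03G1454 followed the same order. It stood at 100.2, 85.6 and 102 CPM in WW24 and at 329, 307 and 330.5 CPM in WS24. At 48 h its levels were 52.0, 40.6 and 52.1 CPM in WW48 and 254, 206 and 251 CPM in WS48. For both genes the groups ran WS24, WS48, WW24, WW48 from the highest to the lowest, and the libraries of neighbouring groups in that order did not overlap. Of the 43938 genes kept by the filter on low counts, 16.7% had every WS48 library below every WS24 library, 15.4% every WS48 library above every WW24 library and 11.2% every WW48 library below every WW24 library, so a separation of this kind was common and nothing is read from it.

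Group means of Gh_A03G0127 were 307 ± 15.9 CPM in WS24, 252 ± 33.0 in WS48, 104 ± 10.5 in WW24 and 62.0 ± 6.51 in WW48 (SD, n = 3 each). The ratio of the WS mean to the WW mean was 2.96 at 24 h and 4.07 at 48 h for Gh_A03G0127. The ratio was 3.36 at 24 h and 4.91 at 48 h for Gh_D03G1454. The level was lower at 48 h than at 24 h in the well-watered tips, with WW48/WW24 ratios of 0.597 for Gh_A03G0127 and 0.504 for Gh_D03G1454, so the larger WS/WW ratio at 48 h went with a lower control. Against the control of the other time, WS48/WW24, the ratios were 2.43 and 2.47.

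**Figure D1:**
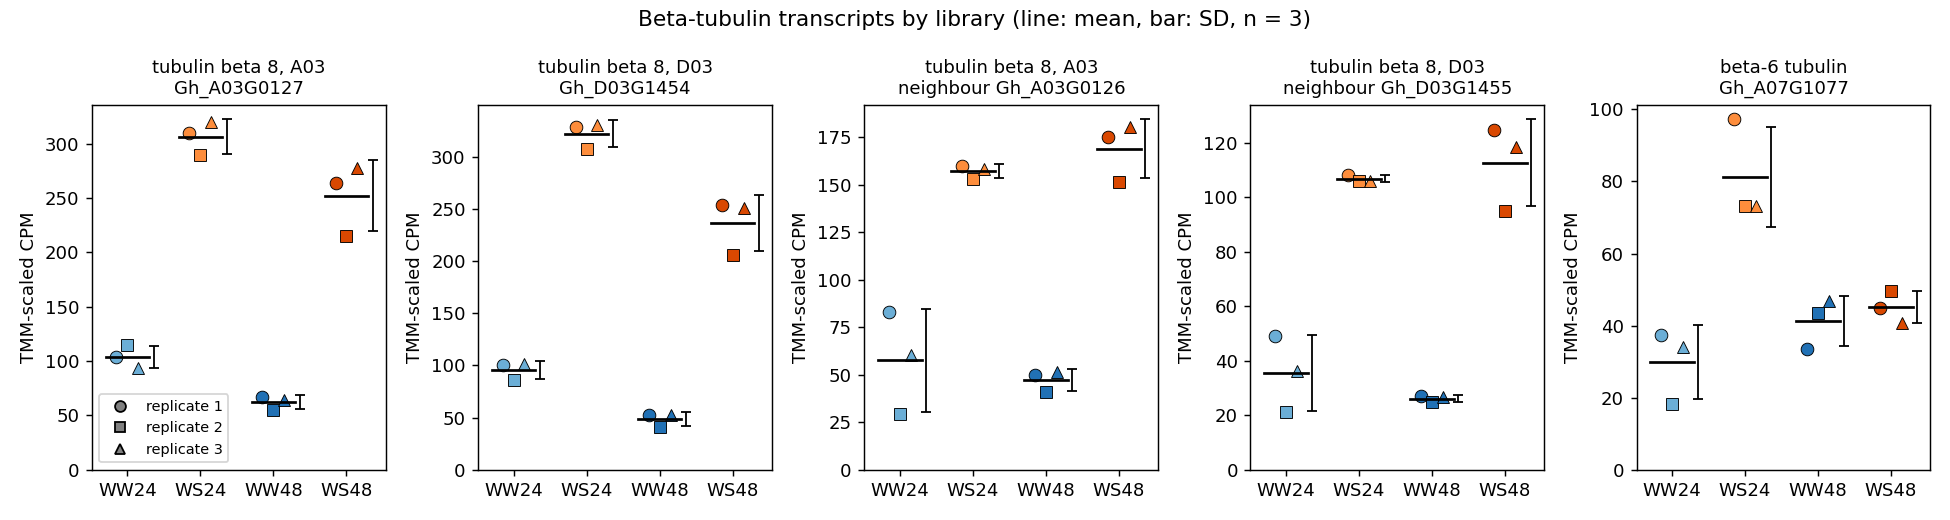
Level of the 4 tubulin beta 8 genes and of beta-6 tubulin in each of the 12 libraries (vertical axis: TMM-scaled CPM, from 0; symbols: replicates; line: mean; bar: SD, n = 3). In both members of the pair every WS library lies above every WW library, with 215 CPM the lowest WS and 115 CPM the highest WW value of Gh_A03G0127, whereas beta-6 tubulin in WS48 (40.8 to 49.6 CPM) overlaps WW48.

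In the edgeR fit, the log2 fold change of Gh_A03G0127 was 1.56 ± 0.15 (SE) in WS24/WW24, 1.28 ± 0.15 in WS48/WW24, 2.02 ± 0.15 in WS48/WW48 and -0.74 ± 0.15 in WW48/WW24. Those of Gh_D03G1454 were 1.75, 1.31, 2.29 and -0.99 in the same order. A gene was called where its adjusted p did not exceed 0.05 and its log2 fold change reached 1 or -1. Among the 43938 genes that passed the filter on low counts, 3.75% were called higher in WS24/WW24, 3.57% in WS48/WW24 and 3.18% in WS48/WW48. Both members passed the filter, and nothing is read from their calls in these comparisons, by which they were chosen. In WW48/WW24, where 4.79% of genes were called in either direction, the fold changes of both lay under the threshold, that of Gh_D03G1454 narrowly. The fold change of Gh_D03G1454 was past -1 without WW24 replicate 2 (-1.08), WW48 replicate 1 (-1.07) or WW48 replicate 3 (-1.05). It was also past -1 with RLE scaling (-1.01), with DESeq2 (-1.01) and without the filter on low counts (-1.00). In the remaining alternatives it stayed under the threshold.

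The comparison of the water-stressed tips with each other, WS48/WS24, is between tips of the same length and did not choose the pair, although it shares the WS48 libraries with the comparisons that did. Gh_A03G0127 had a log2 fold change of -0.28 ± 0.14 (SE) with an adjusted p of 0.403 (edgeR quasi-likelihood test, Benjamini-Hochberg over 43938 genes). Gh_D03G1454 had one of -0.44 with an adjusted p of 0.185. Neither was called, among 0.382% of all genes called in either direction. The separation of the WS48 from the WS24 libraries in both genes was one that 16.7% of all genes had, and the adjusted p ranged from 0.0764 to 0.794 for Gh_A03G0127 and from 0.00814 to 0.548 for Gh_D03G1454 over the alternatives. In the order of the groups, WS48 therefore did not differ from WS24 beyond the thresholds. In the main fit WW48/WW24 stayed under the fold threshold as well, which for Gh_D03G1454 depended on the setting.

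The neighbouring genes of the same name, which stand on the same list, were also more abundant in water-stressed tips, and their WS48 and WS24 libraries overlapped. Gh_A03G0126 stood at 82.9, 29.2 and 60.2 CPM in WW24, 153 to 159.8 CPM in WS24, 40.6 to 51.2 CPM in WW48 and 151 to 180.1 CPM in WS48. Gh_D03G1455 stood at 49.0, 21.2 and 36.1 CPM in WW24, 106 to 108 CPM in WS24, 24.8 to 27.0 CPM in WW48 and 94.9 to 124.9 CPM in WS48. The WW48 libraries of both neighbours overlapped those of WW24 only through WW24 replicate 2. With that library left out, WW24 lay at 60.2 to 82.9 CPM for Gh_A03G0126 and 36.1 to 49.0 CPM for Gh_D03G1455, above every WW48 library as in the pair, and the log2 fold changes in WW48/WW24 were -0.61 and -0.72. Their log2 fold changes in WS48/WS24 were 0.11 (adjusted p = 0.898 by edgeR) for Gh_A03G0126 and 0.08 (adjusted p = 0.91) for Gh_D03G1455. In WW24 replicate 2 both neighbours were at their lowest of the WW24 group, while Gh_A03G0127 was at its highest there.

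How the reads divide between these genes within a library was not what chose them, and such a share does not depend on how libraries are scaled. Each share rests on 425 or more reads, and its 95% Wilson interval reaches at most 4.59 percentage points to a side, which covers counting error only. Gene lengths were not known here, so a share is compared between libraries only, and no gene is called more abundant than another from it. Reads from near-identical copies may have been assigned to one or the other, which leaves each share uncertain as a measure of either gene. The shares were compared by exact permutation of the labels within each time or each treatment (two-sided, 400 arrangements, smallest possible p 0.005), with p adjusted over the 6 tests of these 3 shares.

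Gh_D03G1454 held 49.2%, 42.8% and 52.1% of the reads of the pair in WW24 and 51.4%, 51.5% and 50.8% in WS24. At 48 h it held 43.7%, 42.6% and 44.8% in WW48 and 49.0%, 48.9% and 47.4% in WS48. The WW48 and WS48 libraries did not overlap, whereas WW24 replicate 3 lay above all WS24 libraries. The share was 3.97 percentage points higher in WS than in WW over both times, by 3.21 at 24 h and 4.73 at 48 h (exact permutation p = 0.02, adjusted p = 0.0375). It was 3.55 points below the 24 h share at 48 h, a difference of -2.79 in WS and -4.31 in WW (exact p = 0.025, adjusted p = 0.0375). Without WW24 replicate 2 the WS minus WW difference was 0.589 points at 24 h and 4.73 at 48 h (2.66 over both, exact permutation test, adjusted p = 0.04), so the difference at 24 h rested on that library. As an alternative to the pair, the D03 share of the reads of all 4 genes was 4.05 points higher in WS (adjusted p = 0.01, exact permutation test, adjusted as a replacement for the share of the pair). These differences passed narrowly. The adjusted p of WS minus WW was 0.0525 to 0.075 (exact permutation test) without any 1 of the WS24 or WW48 libraries. That of 48 h minus 24 h was 0.0525 to 0.143 without any 1 library other than WW24 replicate 2 or WS48 replicate 1.

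The share of each member beside its neighbour was lower at 48 h than at 24 h. Gh_A03G0127 held 55.5%, 79.7% and 60.8% of the reads of Gh_A03G0127 and Gh_A03G0126 in WW24, 65.5% to 66.9% in WS24, 55.7% to 57.4% in WW48 and 58.7% to 60.7% in WS48. Gh_D03G1454 held 67.1%, 80.2% and 73.8% of the reads of Gh_D03G1454 and Gh_D03G1455 in WW24, 74.3% to 75.7% in WS24, 62.1% to 66.3% in WW48 and 67.0% to 68.5% in WS48. In the water-stressed tips the groups of both times were apart in both shares.

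From 24 h to 48 h the share of Gh_A03G0127 differed by -7.43 percentage points, -6.31 in WS and -8.55 in WW (exact permutation p = 0.02, adjusted p = 0.0375). That of Gh_D03G1454 differed by -8.13 points, -7.30 in WS and -8.96 in WW (exact p = 0.005, the smallest the test can give, adjusted p = 0.03). Without WW24 replicate 2 the differences between the times were -3.84 and -6.50 points (adjusted p = 0.04 and 0.0075, exact permutation test), and the well-watered part of that of Gh_A03G0127 was -1.37. Without any 1 of the WW48 libraries the adjusted p between times was 0.12 to 0.143 for Gh_A03G0127 and 0.06 for Gh_D03G1454, and without any 1 of the WS24 libraries 0.0525 for Gh_A03G0127 (exact permutation test). Between WS and WW the shares differed by 1.93 points for Gh_A03G0127 (exact p = 0.655, adjusted p = 0.655) and by 2.21 points for Gh_D03G1454 (exact p = 0.305, adjusted p = 0.366). These last differences turned on WW24 replicate 2, without which they were 5.52 and 3.84 points (adjusted p = 0.0075 for both, exact permutation test). Without WW24 replicate 1 the first of them was -0.531.

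**Figure D2:**
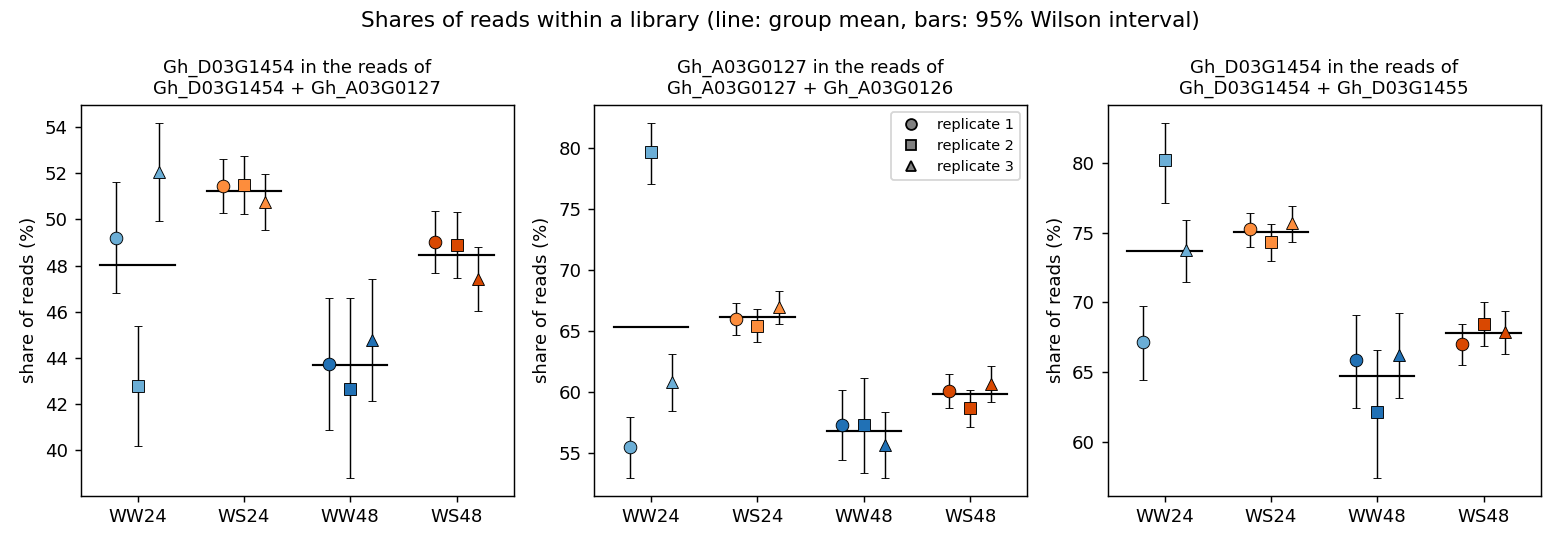
Share of reads within each library (vertical axis: percent, not from 0; symbols: replicates; bars: 95% Wilson interval; line: group mean) of Gh_D03G1454 in the pair, and of each member beside its neighbour of the same name. The share of Gh_D03G1454 in the pair lies at 42.6% to 44.8% in WW48 and 47.4% to 49.0% in WS48, and WW24 replicate 2 is the highest library in both shares with a neighbour, at 79.7% and 80.2%.

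Beta-6 tubulin (Gh_A07G1077), another beta subunit, is not on the list by which the pair was chosen and could be tested in every comparison. It stood at 37.4, 18.1 and 33.9 CPM in WW24 and at 97.3, 73.2 and 73.3 CPM in WS24. At 48 h it stood at 33.6, 43.4 and 46.7 CPM in WW48 and at 44.9, 49.6 and 40.8 CPM in WS48. It was thus high in the WS24 libraries alone, and the 48 h groups overlapped. In WS24/WW24 it rose by 1.44 ± 0.24 (SE) on the log2 scale (adjusted p = 0.00196 by edgeR), and it passed in each of the 20 alternatives run. In WS48/WW24 the log2 fold change was 0.59 (adjusted p = 0.124) and in WS48/WW48 0.13 (adjusted p = 0.75). In WS48/WS24 it was -0.85 ± 0.23 (edgeR adjusted p = 0.129), which was not called. The adjusted p of WS48/WS24 ranged from 0.0016 to 0.353 over the alternatives. The difference between its stress effects at 48 h and 24 h was -1.31 ± 0.33 on the log2 scale (edgeR adjusted p = 0.182). That difference was called by DESeq2 (-1.29, adjusted p = 0.026) and, with edgeR, without WW24 replicate 2 (-1.05, adjusted p = 0.0223). For the pair the same difference was 0.46 for Gh_A03G0127 and 0.54 for Gh_D03G1454, of the opposite sign, and is given with no test.

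The other microtubule genes named in the tables went in both directions. The tables hold 9 such genes, and 5 remain without the 4 called tubulin beta 8. Of these 5, 1 was higher and 3 were lower in WS48/WW24, 1 and 3 in WS48/WW48, and 1 and 2 in WS24/WW24, beside 3.9%, 5.98% and 4.93% of all genes called lower in these comparisons. Their median log2 fold changes were -1.12, -1.08 and -0.90, where the medians of all genes tested were 0.01, -0.01 and 0.00. Of the 5, 4 are on the study's list from these libraries, so these counts are no independent evidence of a direction.

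Both genes for microtubule-associated protein 65-8, of a family that crosslinks microtubules into bundles, were lower in water-stressed tips. Gh_A03G1102 stood at 57.9, 174 and 68.6 CPM in WW24, 26.5 to 36.2 CPM in WS24, 79.9 to 106 CPM in WW48 and 34.1 to 42.2 CPM in WS48. WW24 replicate 2 was the highest of the 12 libraries, and the WS and WW libraries did not overlap with or without it. Gh_D02G1527 fell by 1.08 on the log2 scale in WS48/WW48, and the kinesin motor Gh_A05G3566, of a family that moves along microtubules, fell by 1.16. A gene of the MAP65/ASE1 family (Gh_D09G1693) was higher in WS48/WW48 by a log2 fold change of 3.09, at low levels of 1.43 to 4.55 CPM in WS48 and 0.206 to 0.348 CPM in WW48. Its log2 fold change was 2.94 in WS48/WW24, which passed, and 2.17 in WS24/WW24, which did not, so it went the way of the pair in each. Without WW24 replicate 2, 1 of the 5 genes was called higher and 0 lower in WS48/WW24, 2 higher and 0 lower in WS24/WW24, and 1 higher and 3 lower in WS48/WW48. The added higher call was that of Gh_D09G1693 in WS24/WW24, with a log2 fold change of 3.68.

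Genes named for dividing cells went in both directions, so the name dividing cells was not borne out by them and the pair is called here by its gene name. The list held 5 genes, all from the study's list. In WS48/WW24, 3 were called higher and 2 lower, in WS48/WW48 3 and 1, and in WS24/WW24 1 and 2. Of all genes, 3.57%, 3.18% and 3.75% were called higher and 3.9%, 5.98% and 4.93% lower in the same order. Since the study picked the 5 genes on these libraries, their counts are no independent evidence of a direction. CYCLIN D1;1 (Gh_D13G2534), of the D-type cyclins that act at the entry into the cell cycle, stood at 1.84, 0.288 and 1.75 CPM in WW24 and 1.03 to 2.26 CPM in WW48. Its level in WS24 was 3.73 to 5.70 CPM and in WS48 3.18 to 8.76 CPM, above every well-watered library. Of the 5 genes its pattern over the 12 libraries was the most like that of the pair (r = 0.730), at a low level.

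Histones, the proteins that package DNA, differed from the pair at 24 h. The histone gene Gh_D10G0496 stood at 13.5, 5.90 and 14.1 CPM in WW24 and 10.4 to 13.9 CPM in WS24, which overlapped, and at 7.08 to 14.8 CPM in WW48 and 24.0 to 27.0 CPM in WS48. Gh_A13G1131, the other histone gene, was higher in WS48/WW48 by a log2 fold change of 1.33 and had one of 0.59 in WS24/WW24, which did not pass. Thus the histone genes were highest in WS48 and the pair in WS24.

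The cyclins of the P type went the opposite way from the pair. Cyclin p3;2 (Gh_A08G1232) stood at 36.3, 86.2 and 39.5 CPM in WW24, 21.6 to 25.6 CPM in WS24, 38.2 to 54.9 CPM in WW48 and 19.2 to 21.1 CPM in WS48. Cyclin p3;1 (Gh_D11G0828) fell by 1.55 on the log2 scale in WS48/WW24 and had a log2 fold change of -1.14 in WS48/WW48, which did not pass. Without WW24 replicate 2 the list had 2 higher and 0 lower calls in WS48/WW24, 1 and 0 in WS24/WW24, and 3 and 2 in WS48/WW48.

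The 4 genes for actin 7, a subunit of the actin filaments of growing tissue, were not called in any comparison. None of them is on the study's list. Their summed level was 464, 459 and 464 CPM in WW24, 381 to 406 CPM in WS24, 254 to 346 CPM in WW48 and 317 to 376 CPM in WS48. Their median log2 fold change was -0.31 in WS24/WW24, -0.37 in WS48/WW24 and -0.09 in WS48/WW48. For 2 of the 4 genes an adjusted p of 0.05 or less was met in WW48/WW24 with a fold change under the threshold, and these were Gh_A11G3240 (log2 fold change -0.55, adjusted p = 0.0298 by edgeR) and Gh_D11G3453 (-0.75, adjusted p = 0.0409). Gh_D08G1154 met it in WS24/WW24 (-0.63, adjusted p = 0.0236) and in WS48/WW48 (-0.54, adjusted p = 0.0411). In WW48/WW24 the fold change of Gh_D11G3453 was as large as that of Gh_A03G0127, whereas in the WS/WW comparisons no actin gene reached the fold threshold.

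**Figure D3:**
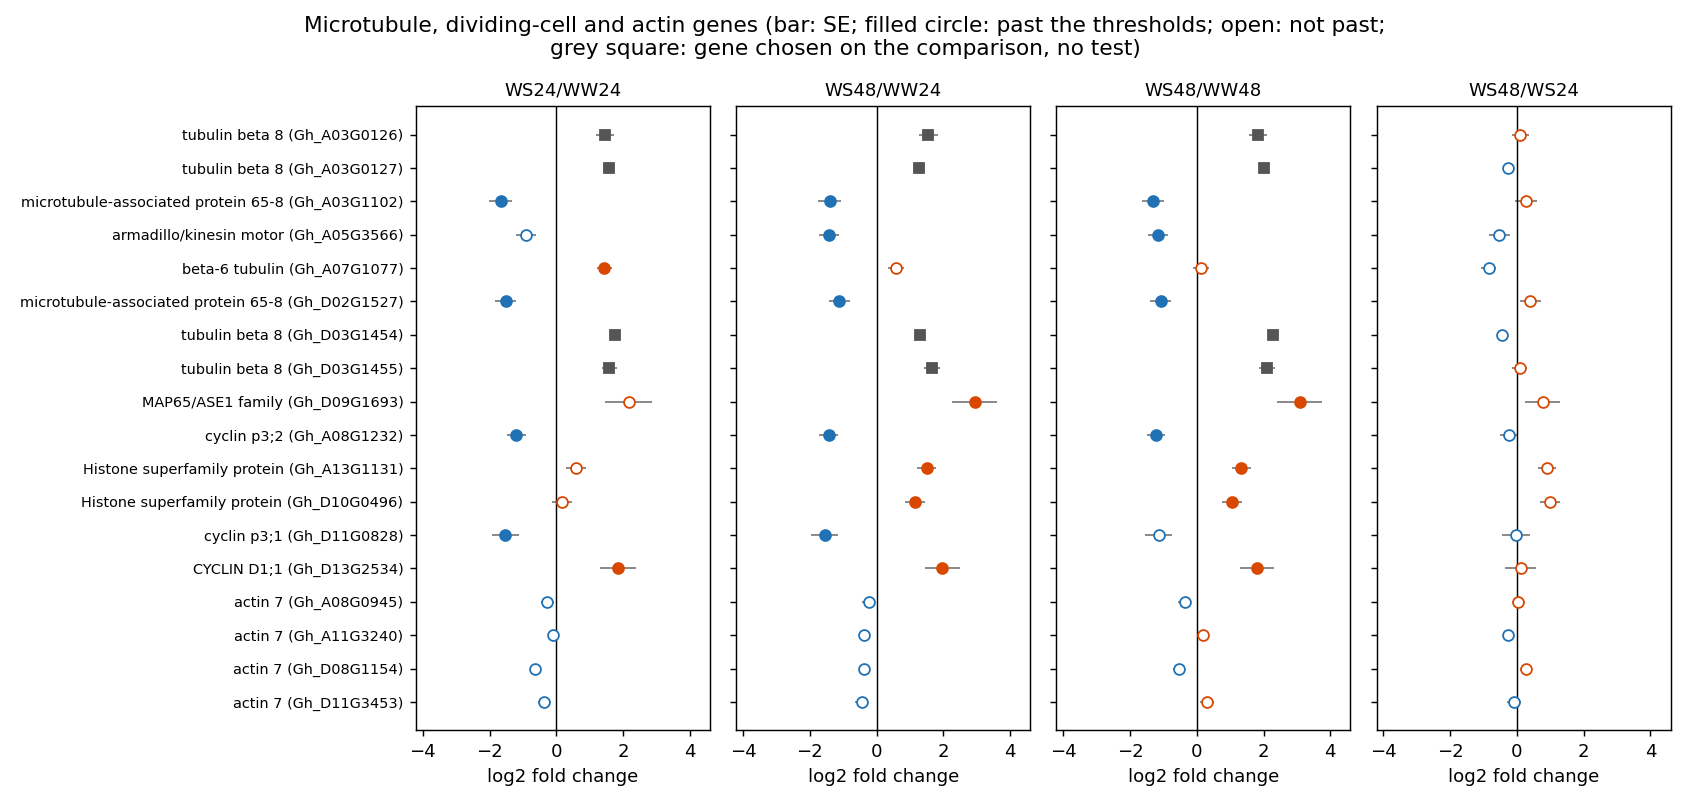
Log2 fold changes of the microtubule, dividing-cell and actin 7 genes in 4 comparisons (horizontal axis: log2 fold change; bars: SE; filled circle: past both thresholds; open circle: not past; grey square: tubulin beta 8 in the comparisons it was chosen on, with no test). In the WS/WW comparisons the 4 tubulin beta 8 genes lie between 1.28 and 2.29 and both genes for microtubule-associated protein 65-8 lie below 0. No gene shown passes in WS48/WS24.

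The genes listed as xylem were lower where the pair was higher. The list was drawn by name (laccase, xylem, FASCICLIN-like arabinogalactan-protein 12), and whether each gene marks xylem vessels was not tested. All 12 genes of this list were called lower in WS24/WW24, 8 in WS48/WW24 and 7 in WS48/WW48. Of all genes, 4.93%, 3.9% and 5.98% were called lower in these comparisons. Their summed level was 41.3 to 57.4 CPM in WS24, 99.2 to 165 CPM in WS48 and 773 to 1459 CPM in WW48, beside 255, 1051 and 353 CPM in WW24. The order of the groups in the median library was thus the reverse of that of the pair, WW48 highest and WS24 lowest. Without WW24 replicate 2, the counts called lower were 12, 3 and 12. All 12 are on the study's list from these libraries, so these counts are no independent evidence of a direction. Their part in the level of the pair was not tested.

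Expansins, proteins that loosen the wall of elongating cells, had a summed level in the same order of groups as the pair. It was 376 to 416 CPM in WS24, 232 to 286 CPM in WS48, 168 to 189 CPM in WW24 and 122 to 130 CPM in WW48. Single expansins were divided, however, with 7 of 12 called higher in each WS/WW comparison and 4, 4 and 5 called lower in WS24/WW24, WS48/WW24 and WS48/WW48. Of all genes, 3.75%, 3.57% and 3.18% were called higher and 4.93%, 3.9% and 5.98% lower in the same order. All 12 expansins were taken from the study's list, so their counts are no independent evidence of a direction.

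Genes named for root hairs went in both directions, and the gene named for the root cap was higher in water-stressed tips. These lists were drawn by name, and whether each gene marks its tissue was not tested. All 3 genes for RHD SIX-LIKE 1, a transcription factor that starts root hairs in Arabidopsis, were called higher in every WS/WW comparison, and Gh_A08G2486 stood at 13.8 to 14.7 CPM in WS24, 9.39 to 10.8 in WS48, 3.60 to 4.66 in WW24 and 2.68 to 3.22 in WW48. Both later root hair genes, root hair specific 13 and 18, were called lower in WS24/WW24, 1 of them in WS48/WW24 and 0 in WS48/WW48. These counts were 1, 1 and 2 without WW24 replicate 2. The gene named root cap 1 (RCP1) was called higher in all 3 WS/WW comparisons. It stood at 7.52 to 8.78 CPM in WS24, 6.05 to 7.52 CPM in WS48, 0.719 to 2.58 CPM in WW24 and 2.00 to 2.47 CPM in WW48. Of 19 phloem protein 2 genes that passed the filter, of 27, 4 were called lower in WS24/WW24, 4 in WS48/WW24 and 5 in WS48/WW48, 1 was called higher in WS48/WW24, and the other 14 or 15 were not called. In WS24/WW24, WS48/WW24 and WS48/WW48, 3.75%, 3.57% and 3.18% of all genes were called higher and 4.93%, 3.9% and 5.98% lower. The root hair and root cap genes are on the study's list, so their counts are no independent evidence of a direction. The part of the tissues named here in the level of the pair was not tested.

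**Figure D4:**
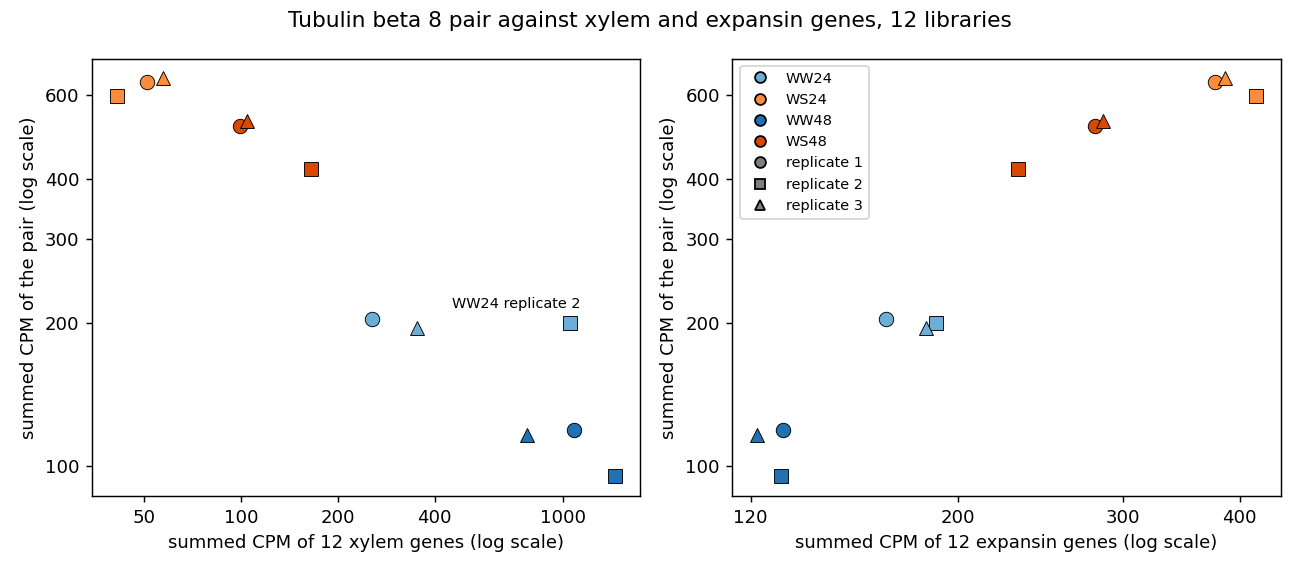
Summed level of the pair against the summed level of 12 xylem genes and of 12 expansin genes in the 12 libraries (both axes: TMM-scaled CPM, log scale; colours: groups; symbols: replicates). The pair falls from 597 to 651 CPM in WS24 to 95.2 to 119 CPM in WW48 as the xylem sum grows, and WW24 replicate 2 has the pair at 200.1 CPM like its group but the xylem sum at 1051 CPM.

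Across the 12 libraries, the log2 levels of the 2 members had a Pearson r of 0.991, and of 0.544 once the group means were taken out. The points share library and group, so these values describe the libraries and carry no p. The 2 neighbours had an r of 0.991 with each other and 0.973 within groups. Gh_A03G0127 and Gh_A03G0126 had an r of 0.890 and -0.0875 within groups, and Gh_D03G1454 and Gh_D03G1455 an r of 0.943 and 0.628. Within groups, with all 12 libraries, the neighbours thus varied with each other more closely than Gh_A03G0127 did with either Gh_D03G1454 or its own neighbour. These values include WW24 replicate 2, where both neighbours were lowest and Gh_A03G0127 highest of WW24, and were not computed without it. In WS24, WW48 and WS48, Gh_A03G0127 and Gh_A03G0126 were both at their lowest in replicate 2. The mean level of the pair had an r of -0.955 with the xylem sum, 0.969 with the expansin sum and 0.283 with the actin sum (within groups -0.404, 0.352 and 0.835).

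Of 41769 genes with a mean of at least 1 CPM, 188 had an r of at least 0.95 with the mean of the pair over the 12 libraries, and 118 had one of -0.95 or less. A function was known for 1527 of the genes compared, mostly those on the study's list. The 5 of these with the highest r were a tonoplast dicarboxylate transporter (Gh_D06G1695, r = 0.988), which moves malate into the vacuole, beta-amylase 1 (Gh_D10G1605, 0.984), a starch-degrading enzyme, TRICHOME BIREFRINGENCE-LIKE 38 (Gh_D06G1745, 0.983), arginine decarboxylase 2 (Gh_D02G2193, 0.981), an enzyme of polyamine synthesis, and a putative receptor serine/threonine kinase (Gh_A11G1608, 0.980). Within groups their r was 0.152 to 0.608. Arginine decarboxylase 2 had means of 322 CPM in WS24, 220 CPM in WS48, 73.7 CPM in WW24 and 38.6 CPM in WW48, the order of the pair.

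The 5 genes with the lowest r were WRKY DNA-binding protein 72 (Gh_A13G0630, r = -0.988), a transcription factor, a THDP-binding superfamily protein (Gh_A05G3323, -0.985), a peroxidase (Gh_A04G1453, -0.984), a GRAM domain-containing protein (Gh_D13G0595, -0.984) and a wall-associated kinase (Gh_A09G0180, -0.984). WRKY 72 had a mean of 10.7 CPM in WW48 and 2.53 CPM in WW24, no read in WS24 and 0.0596 CPM in WS48. All 10 genes are on the study's list. By rank correlation 1 of the 5 highest and 2 of the 5 lowest were again among the 5 at that end.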

How the data were processed

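RNA from pooled cotton root tips was sequenced in 12 libraries, 3 in each of 4 groups assigned by their titles. The authors aligned reads to the NAU-NBT cotton assembly (the submitters' processing notes name HISAT2 1.0 and HTSeq 0.6.1) and deposited counts per gene as whole numbers. Beside them they deposited a score, values normalized with edgeR and TMM and rounded, used only as an alternative. The strand setting of the counting was not given in the sources used here, hence overlapping antisense genes cannot be told apart. The 4 lines naming no gene were left out, and counts in genes were 60.9% to 68.8% of all reads.

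Counts were scaled by TMM (factors 0.857 to 1.06), filtered by filterByExpr (minimum count 10, total 15) and fitted in 1 model of all 12 libraries (prior count 0.125, quasi-likelihood test, R 4.3.3, edgeR 4.0.16, limma 3.58.1) with Benjamini-Hochberg adjustment over the 43938 genes kept. The edgeR p-values rest on the spread between libraries of the same group, estimated from all groups together. WW24 replicate 2 therefore also enters the error of comparisons without WW24. Shares of reads were tested by exact permutation (Python 3.11.15). The procedures were tested on simulated data.

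The members and the lists were chosen with earlier results of these data known. Lists came from words in the functions that the study's tables, 1 of them held in part, give to 1764 genes. Named are the members, the other tubulins, every microtubule and dividing-cell gene and the 5 genes at each end of the correlation with the pair (log2 CPM, prior count 2, mean of at least 1 CPM). Actin 7, RHD SIX-LIKE 1 and root cap 1 were named after their values were seen. Alternatives were other scalings, filters and tools (DESeq2 1.42.0, limma-voom), the compared groups alone, a replicate block and leaving out each library in turn.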

Additional observations from a re-analysis of the deposited data

How the results depend on the processing

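The log2 fold changes of both members kept their direction under every alternative run. Scaling by library size alone moved WS24/WW24 to 1.72 for Gh_A03G0127 and 1.89 for Gh_D03G1454, and WS48/WW24 to 1.46 for Gh_D03G1454, and the cause was not tested. In WS48/WS24, Gh_D03G1454 had -0.44 both by DESeq2 (adjusted p = 0.0349) and in the compared groups alone by edgeR (adjusted p = 0.00814), still under the fold threshold. The authors' normalized values, an alternative added after seeing the data, gave log2 ratios within 0.0478 of the fit.

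With the replicate block the 4 shares that had passed were 3.97, -3.55, -7.43 and -8.13 points with an adjusted p of 0.0938 each (exact test over pairs), and the cause was not tested. The numbers were not taken as pairs, since the labels tie them to no shared batch and in no comparison did every same-numbered pair of libraries have a correlation of deviations above 0.1. These correlations were -0.0877 to 0.0444 in WS48/WS24, -0.179 to -0.0334 in WS24/WW24, 0.0781 to 0.142 in WS48/WW24, 0.00347 to 0.255 in WS48/WW48 and -0.0231 to 0.38 in WW48/WW24. Leaving out 1 library gave 2.66 to 4.99 points for the Gh_D03G1454 share of the pair in WS minus WW, and -4.86 to -2.54 in 48 h minus 24 h. The share of Gh_A03G0127 beside its neighbour ran from -0.531 (without WW24 replicate 1) to 5.52 (without WW24 replicate 2), and from -9.89 to -3.84 between times. That of Gh_D03G1454 ran from 0.572 to 3.84, and from -9.77 to -6.50 between times. With a library fewer there are fewer arrangements, so an exact test has less reach.

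Counts of genes called depended on the fit. In the compared groups alone they were 1792 in place of 3282 for WS48/WW24, 2280 in place of 3812 for WS24/WW24, 395 in place of 2106 for WW48/WW24 and 1529 in place of 168 for WS48/WS24. WS48/WS24 had 861 by DESeq2, 257 without a filter, 276 with the replicate block, and 26 to 1214 with 1 library left out, the most without WW24 replicate 2. WW48/WW24 had 739 (without WW48 replicate 2) to 5199 (without WW24 replicate 2), WS48/WW48 had 2611 and 2627 without WS48 replicate 1 or 3 in place of 4025, and WS24/WW24 had 2396 without WS24 replicate 2. The remaining 259 values of the members and shares stayed within their spread or on the same side of the threshold. Lowest depth, 355 and 264 counts of the members in WW48 replicate 2, limits the shares most there.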
